A study of Mus musculus with 12 samples.

Results

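The genes of γ-aminobutyric acid (GABA) signaling described here were 27 genes for GABA receptor subunits and for the synthesis, transport, breakdown and anchoring proteins that go with them. They were chosen by name, as all non-control probes of the array whose deposited gene name was one of the 27. No measured value was a criterion, but earlier results of these data were known when the genes were chosen. The array carried 53 such spots with 44 different probes, out of 43020 non-control spots, and 24 of the 27 genes had a value in the fit of 17302 genes. The other 3, Gabra6, Gabre and Gabrq, were too dim.

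The RNA came from the cortex of 12 adult females in 3 groups of 4, named MRL/lpr, Fn14ko and MRL/+. MRL/lpr mice are lupus-prone because a loss-of-function allele of Fas (lpr) is carried on the autoimmune MRL background. Fn14ko mice lacked Fn14 (Tnfrsf12a), the receptor of the cytokine TWEAK, and were bred by backcross as littermates of the MRL/lpr mice, so both groups shared the lpr background. MRL/+ mice (labelled MRL/MpJ) have the MRL background with intact Fas, and they came from a different supplier, so supplier and group cannot be told apart in comparisons with them. Tnfrsf12a signal was 0.604 to 0.777 in Fn14ko, below the 0.943 to 1.28 of MRL/+ and the 1.38 to 1.90 of MRL/lpr. It was thus lower but not absent in the knockout, and whether the probe lies in the deleted part was not known. Nothing in the labels says more of the 4 replicates of a group than that they were separate samples.

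Mice were hybridized in pairs from one group, with odd-numbered replicates in the green dye Cy3 and even-numbered replicates in the red dye Cy5. A group's arrays shared a slide and a scan time, and a slide effect and a group effect cannot be told apart. A signal is the background-corrected intensity divided by the median spot of that mouse, so 1 is the level of the median spot, and levels of different probes cannot be set against each other. The Cy5 readings of MRL/+ replicates 2 and 4 stood apart. The software called 35% and 21.2% of spots well above background (at least 56.6% in the other channels), and unprinted dark corners read 6.88 and 6.66 times the local background there, against at most 2.74 elsewhere. Differences of the GABA genes from MRL/+ that passed the test or had no overlap are therefore also given without these mice. Single probes were not fitted without them. Among 12 cortical excitatory neuron markers with a value, of 13 listed, the summed signal was 106 to 145 in MRL/lpr, 112 to 169 in Fn14ko and 130 to 150 in MRL/+, so markers of the labelled tissue were measured in all 12 mice. Bulk RNA cannot tell fewer cells of a type from less RNA per cell.

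GABA is the main inhibitory transmitter of the cortex. It is made from glutamate by glutamate decarboxylase in interneurons, loaded into vesicles, released onto ionotropic GABA-A receptors, which are pentameric chloride channels, and onto metabotropic GABA-B receptors, which couple to G proteins and potassium channels, and cleared by transporters on neurons and glia. The subunits of a GABA-A receptor set where it sits: γ subunits are typical of synapses, while δ and α5 subunits are typical of extrasynaptic receptors that carry tonic inhibition.

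The question of the comparison between MRL/lpr and MRL/+ was which genes differ in the lupus-prone cortex. Of the 24 genes, 5 (20.8%) passed the limma threshold (adjusted p under 0.05), beside 14.4% of all genes. Gabrd was higher (6.03% of all genes were), and Gabra5, Gabrb1, Gabbr1 and Slc6a11 were lower in MRL/lpr (8.37% of all genes were). The comparison of Fn14ko with MRL/+ asked which differences are present without Fn14. There, 2 of 24 (8.33%) passed, Gabbr1 and Slc6a11, both lower in Fn14ko, beside 0.954% of all genes, with 0.237% higher and 0.717% lower. MRL/lpr against Fn14ko compares mice with and without Fn14 on the lpr background, but these groups lay on different slides. An effect of Fn14 and a slide effect cannot be told apart there. This comparison gave 1 of 24 (4.17%), Gabra5, lower in MRL/lpr, beside 4.57% of all genes, with 2.58% higher and 1.99% lower. The last share was near that of all genes. Median log2 fold changes of the 24 genes were 0.06, 0.19 and 0.11 in the 3 comparisons, against -0.10, -0.10 and -0.07 over all genes. The comparisons share groups, so they are not independent of each other.

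**Figure D1:**
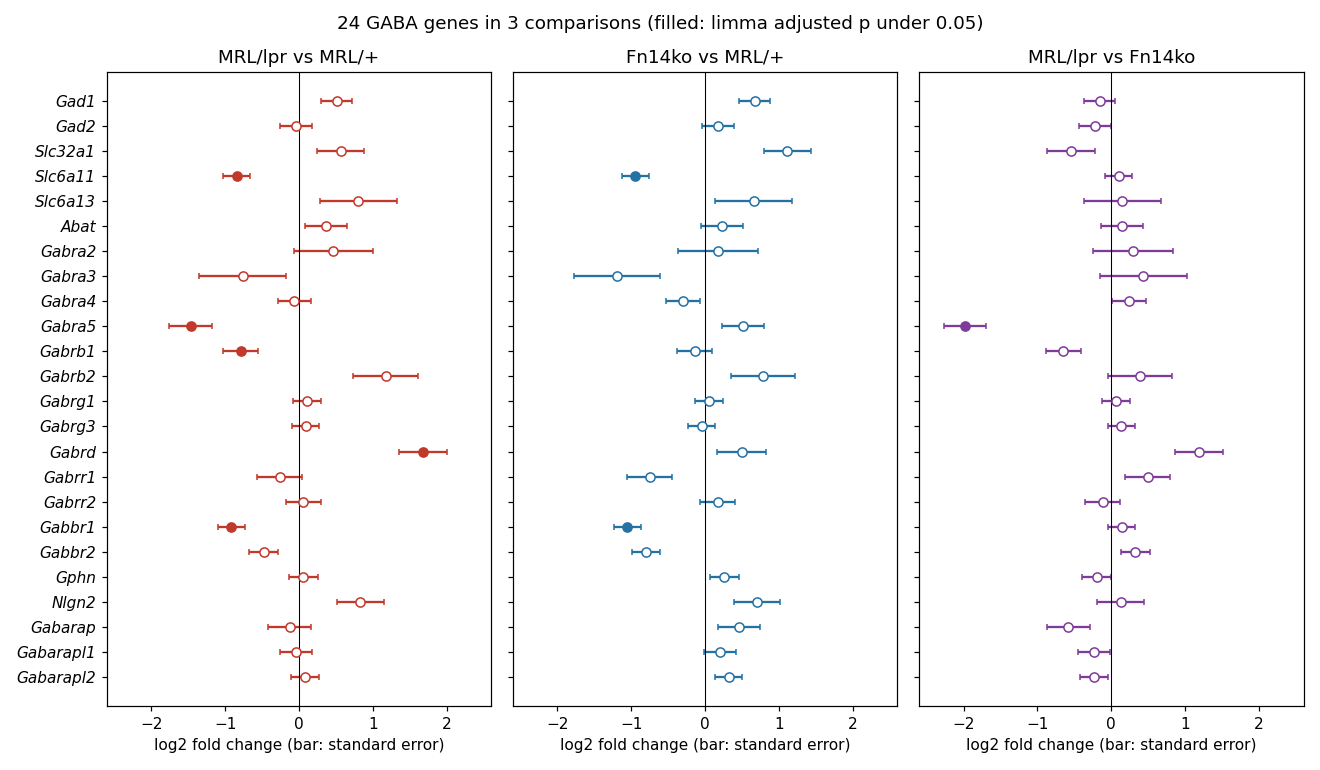
Log2 fold change (x axis, bar: standard error) of the 24 GABA genes with a value (y axis) in the 3 comparisons of 4 against 4 mice. Filled points passed the limma threshold: 5 for MRL/lpr with MRL/+ as control, 2 for Fn14ko with that control, and Gabra5 alone between the lpr groups.

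Gabra5, the α5 subunit of extrasynaptic GABA-A receptors, was the only member that passed the test in MRL/lpr against both other groups. Its probe lay at chr7:64663486-64663545 of mm9 on the minus strand, and its first 30 bases, shown to identify what was measured, read as follows.
Gabra5 probe: ctgtggacatttaagtccagtacgaattgc
Signals were 1.34, 1.06, 1.70 and 1.01 in MRL/lpr replicates 1 to 4. In Fn14ko they were 4.05, 5.70, 4.26 and 6.0, and in MRL/+ 4.56, 3.31, 3.87 and 2.46. All 4 MRL/lpr mice lay below all 8 others, while Fn14ko and MRL/+ overlapped. Gabra5 fell by 1.47 on the log2 scale in MRL/lpr against MRL/+ (SE 0.29, limma adjusted p = 0.00633), a 2.77-fold lower level. Against Fn14ko it fell by 1.98 (SE 0.29, limma adjusted p = 0.00217), a 3.94-fold lower level. Fn14ko against MRL/+ differed by 0.51 (SE 0.29, limma adjusted p = 0.286). Without the MRL/+ Cy5 mice, Gabra5 fell by 1.74 (limma adjusted p = 0.0238) in MRL/lpr against MRL/+ and by 1.98 (limma adjusted p = 0.0112) against Fn14ko. It stayed past the threshold in both comparisons when any 1 of the 12 mice was left out, and lost it when dim spots were kept (limma adjusted p = 0.345 and 0.295).

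Gabrd, the δ subunit of extrasynaptic receptors, was the only member with a higher called level. Its deposited position, chr4:154759071-154759089 of mm9 on the minus strand, covers 19 of the probe's 60 bases, so the rest of the probe is not placed by it. The first 30 bases of the probe read as follows.
Gabrd probe: aggccttttctctgtgggatcaggatcaga
Signals were 7.71, 10.2, 10.1 and 12 in MRL/lpr, 6.62, 2.81, 5.85 and 3.30 in Fn14ko, and 2.86, 3.04, 3.09 and 3.40 in MRL/+. MRL/lpr lay above both other groups without overlap. Within Fn14ko, the Cy3 mice (6.62 and 5.85) were above the Cy5 mice (2.81 and 3.30). Gabrd rose by 1.68 on the log2 scale in MRL/lpr against MRL/+ (SE 0.33, limma adjusted p = 0.00659), a 3.19-fold higher level, and by 1.91 (limma adjusted p = 0.0389) without the MRL/+ Cy5 mice. The difference from Fn14ko, 1.18 (SE 0.33, limma adjusted p = 0.0616), did not pass, although the groups did not overlap. It passed in 5 of the 12 fits with 1 mouse left out and under 9 of 16 other settings. The gene passed with any 1 mouse left out, and not with dim spots kept (limma adjusted p = 0.146). Of 13 striatal markers with a value, of 14 listed, 0 passed the limma test and 5 (38.5%) had an unadjusted p under 0.05 in MRL/lpr against MRL/+, beside 34.7% of all genes. Their summed signal was 42.4 to 63.6 in MRL/lpr and 24.1 to 34.2 in MRL/+, without overlap, and 27.6 to 214 in Fn14ko. Their part in the Gabrd difference was not tested.

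**Figure D2:**
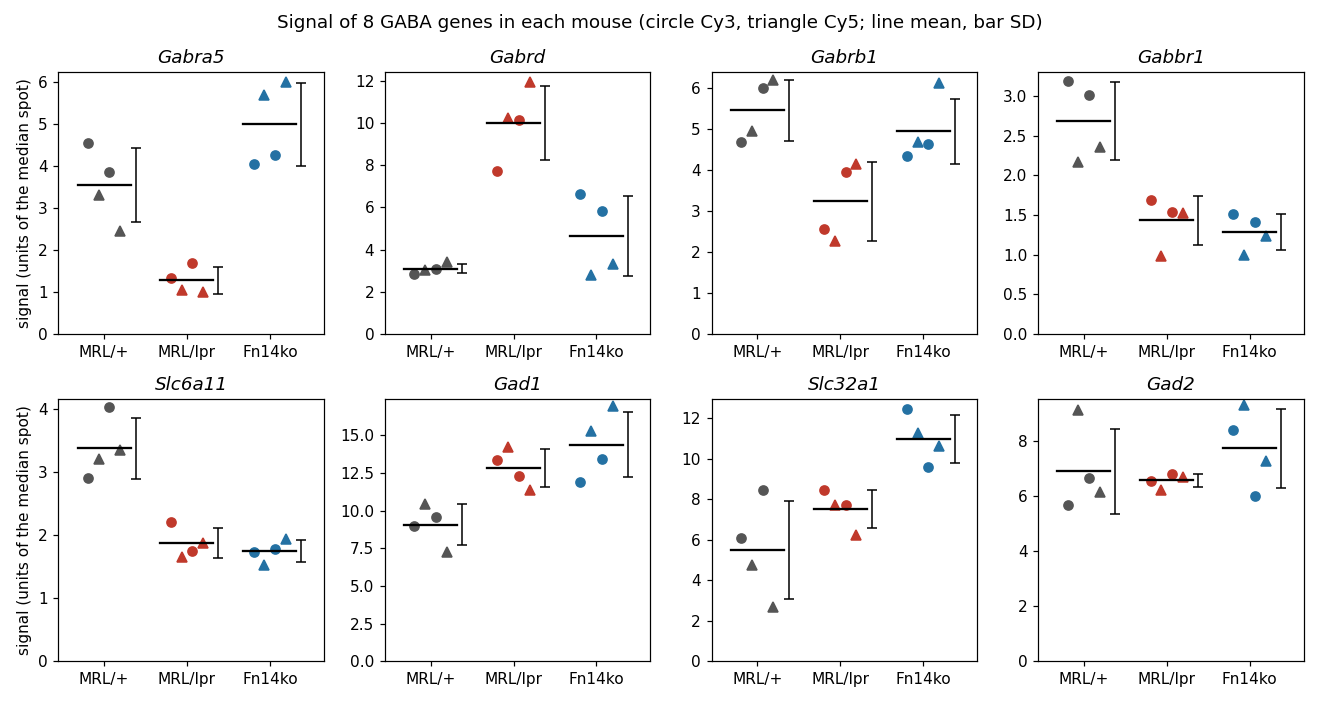
Signal (y axis, units of the median spot of the mouse) of 8 GABA genes in the 4 mice of each group (x axis). Circles are Cy3 mice, triangles Cy5 mice, lines the mean and bars the SD; the MRL/lpr mice lie below all others for Gabra5 and above all others for Gabrd, and the MRL/+ mice lie above all others for Gabbr1 and Slc6a11.

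The β subunits form the GABA binding site together with α subunits. Gabrb1 signals were 2.56, 2.28, 3.95 and 4.16 in MRL/lpr, 4.35, 4.69, 4.63 and 6.12 in Fn14ko and 4.69, 4.96, 6.0 and 6.19 in MRL/+. MRL/lpr lay below both other groups without overlap, and replicates 1 and 2, which shared an array, were its lowest. Gabrb1 fell by 0.79 on the log2 scale against MRL/+ (SE 0.23, limma adjusted p = 0.0398), while the difference of -0.65 from Fn14ko did not pass (SE 0.23, limma adjusted p = 0.148). The call against MRL/+ was lost without MRL/lpr replicate 1 (limma adjusted p = 0.0801) or 2 (limma adjusted p = 0.0871), Fn14ko replicate 2 (limma adjusted p = 0.0656) or 3 (limma adjusted p = 0.0557), MRL/+ replicate 4 (limma adjusted p = 0.134), or both MRL/+ Cy5 mice (limma adjusted p = 0.140). It was also lost with the Cy3 mice only (limma adjusted p = 0.0975) or with only the compared groups in the fit (limma adjusted p = 0.0676). Keeping dim spots gave -0.22 for Gabrb1 against MRL/+ (limma adjusted p = 0.789). Only 1 of the 2 retained probes passed. The probe at chr5:72528086-72528145 fell by 1.17 (SE 0.30, limma adjusted p = 0.0216), and the probe at chr5:72540069-72540128, both on the plus strand of mm9, gave -0.42 (SE 0.25, limma adjusted p = 0.227).

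Gabrb2 signals were 8.48, 6.25, 7.49 and 6.44 in MRL/lpr, 4.96, 5.89, 6.24 and 4.75 in Fn14ko and 5.12, 2.83, 6.04 and 1.13 in MRL/+. All MRL/lpr mice were above all others, but the lowest MRL/lpr mouse (6.25) and the highest Fn14ko mouse (6.24) were nearly level, and the 2 lowest MRL/+ mice were the Cy5 ones. The differences, 1.17 against MRL/+ (SE 0.44, limma adjusted p = 0.0847) and 0.39 against Fn14ko (SE 0.44, limma adjusted p = 0.712), did not pass. The first was 0.45 (limma adjusted p = 0.347) without the MRL/+ Cy5 mice and 0.68 (limma adjusted p = 0.238) without MRL/+ replicate 4, and it passed without MRL/+ replicate 3 (1.56, limma adjusted p = 0.0186). The second was 0.18 without Fn14ko replicate 1 and 0.61 without Fn14ko replicate 2.

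Among the other α subunits, Gabra4 was at 0.964 to 1.75 in all 12 mice and differed by -0.30 to 0.24 in the 3 comparisons. Gabra2 was at 1.81 to 11.7 in MRL/lpr, 2.58 to 3.66 in Fn14ko and 1.74 to 3.61 in MRL/+. Its 2 probes overlap, at chr5:71352306-71352365 and chr5:71352275-71352334 of mm9, and share these 29 bases.
Gabra2, end of the first probe and start of the second: tcagctcacttcaatcattggaaactacc
In spite of this overlap, the first probe read 6.61, 21.7, 2.04 and 1.63 in MRL/lpr replicates 1 to 4, and the second 2.08, 1.64, 2.30 and 2.00. The high Gabra2 value of MRL/lpr replicate 2 was thus a reading of 1 probe. By the second probe MRL/lpr lay below Fn14ko (2.87, 3.45, 3.83 and 4.19) without overlap, with a log2 difference of -0.84 (SE 0.34, limma adjusted p = 0.221).

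Gabra3, the α3 subunit, had 1 retained probe at 0.0899 to 0.597, near the floor of the arrays, and no comparison passed. Its other probe, at chrX:69678031-69678090 of mm9, was brighter but was left out because the scanner software marked the spot of MRL/lpr replicate 2. It read 8.96, 6.29, 8.38 and 5.74 in MRL/lpr, 2.90, 3.02, 5.28 and 3.21 in Fn14ko and 2.29, 1.27, 3.25 and 0.688 in MRL/+, so MRL/lpr lay above both other groups. With marked spots kept, Gabra3 was 1.79 higher in MRL/lpr than in MRL/+ on the log2 scale (SE 0.27, limma adjusted p = 0.00222), in place of -0.76 (limma adjusted p = 0.353) with the retained probe.

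The γ subunits Gabrg1 (0.949 to 1.51) and Gabrg3 (0.732 to 1.12) had overlapping groups in all comparisons as gene values, with log2 fold changes of -0.05 to 0.14. The retained Gabrg3 probes disagreed in MRL/lpr against MRL/+. The dim probe at chr7:63979783-63979842 fell by 0.995 without overlap (SE 0.32, limma adjusted p = 0.0502). It was well above background in 2 of the 4 MRL/+ mice. The probes at chr7:63979612-63979671 and chr7:63971847-63971906 gave -0.29 (SE 0.66, limma adjusted p = 0.767) and 0.34 (SE 0.18, limma adjusted p = 0.178). The ρ subunits, known best from retina, were at 0.198 to 0.699 (Gabrr1) and 0.755 to 1.54 (Gabrr2), and none of their comparisons passed. Gabra6, the α6 subunit of cerebellar granule cells, was well above background in 1 MRL/lpr, 1 Fn14ko and 0 MRL/+ mice, with 1.33 to 4.33 times the local background. Gabrq (θ) was well above background in 0 of 12 mice. For Gabre (ε), 1 probe was well above background in 0 of 12 mice and the other in 2 mice of each group, always the Cy3 mice.

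Gabbr1, the GABA-B subunit that binds GABA, was lower in both lpr groups. The 2 retained probes are printed whole because both carried the difference; the first lay at chr17:37209174-37209232 and the second at chr17:37206959-37207018 of mm9, on the plus strand.
Gabbr1 first probe: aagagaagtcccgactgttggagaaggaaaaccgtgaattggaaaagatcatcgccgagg
Gabbr1 second probe: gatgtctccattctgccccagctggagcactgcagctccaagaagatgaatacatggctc
Signals of the gene were 1.68, 0.980, 1.54 and 1.53 in MRL/lpr, 1.52, 1.00, 1.41 and 1.23 in Fn14ko and 3.19, 2.17, 3.01 and 2.36 in MRL/+. Every MRL/+ mouse was above all 8 others, and the lpr groups overlapped. Gabbr1 fell by 0.92 on the log2 scale in MRL/lpr (SE 0.19, limma adjusted p = 0.00778), a 1.89-fold lower level, and by 1.05 in Fn14ko (SE 0.19, limma adjusted p = 0.0243), a 2.08-fold lower level. MRL/lpr and Fn14ko differed by 0.14 (SE 0.19, limma adjusted p = 0.769).

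Another, brighter Gabbr1 probe at chr17:37210986-37211045 was left out because the spots of MRL/lpr replicates 1 and 2 were marked. It read 8.64, 23.5, 16.4 and 18.7 in MRL/lpr, 14.5, 19.3, 16.1 and 18.6 in Fn14ko and 16.8, 17.2, 18.9 and 22.0 in MRL/+, with overlap of all groups, and with it Gabbr1 gave -0.36 (limma adjusted p = 0.288) and -0.29 (limma adjusted p = 0.438). The call in MRL/lpr was also lost without MRL/+ replicate 4 (limma adjusted p = 0.0634) or both MRL/+ Cy5 mice (-0.94, limma adjusted p = 0.0582), and that in Fn14ko without the same mice (limma adjusted p = 0.204 and 0.206) or without Fn14ko replicate 2 (limma adjusted p = 0.0957) or 3 (limma adjusted p = 0.0715). With dim spots kept, Gabbr1 gave -0.32 (limma adjusted p = 0.658) and -0.33 (limma adjusted p = 0.659).

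Gabbr2, the GABA-B subunit that couples to G proteins, was at 0.487, 0.442, 0.552 and 0.537 in MRL/lpr, 0.464, 0.427, 0.405 and 0.325 in Fn14ko and 0.841, 0.713, 0.784 and 0.512 in MRL/+. Fn14ko lay below MRL/+ without overlap, with a difference of -0.80 (SE 0.20, limma adjusted p = 0.0704), or -0.94 (limma adjusted p = 0.206) without the MRL/+ Cy5 mice. It passed without Fn14ko replicate 1 (limma adjusted p = 0.0472) or MRL/+ replicate 3 (limma adjusted p = 0.0493). In MRL/lpr its probes disagreed: the probe at chr4:46677030-46677089 fell by 0.93 (SE 0.21, limma adjusted p = 0.0141) and the one at chr4:46677374-46677433, both on the minus strand of mm9, gave -0.12 (SE 0.21, limma adjusted p = 0.696). Each of these probes was well above background in all 4 mice of either lpr group, but in only 2 of the 4 MRL/+ mice. This limits the Gabbr2 differences from MRL/+.

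**Figure D3:**
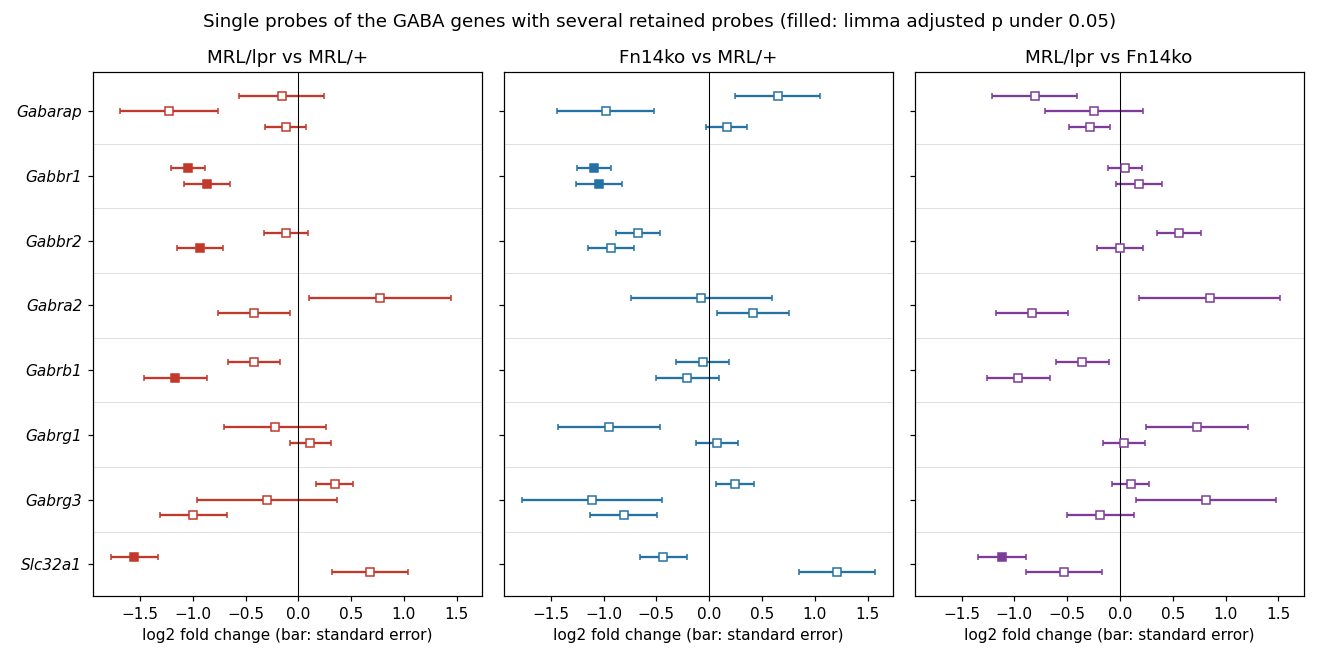
Log2 fold change (x axis, bar: standard error) of single retained probes (squares) of the 8 GABA genes with several (y axis) in the 3 comparisons. Filled squares passed the limma threshold over probes; the Gabbr1 probes lie together, while those of Slc32a1 lie on either side of 0 in both comparisons with MRL/+.

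Slc6a11, the GABA transporter GAT3 of astrocytes, was the other gene lower in both lpr groups. Its probe lay at chr6:114199514-114199573 of mm9 on the plus strand and began with these 30 bases.
Slc6a11 probe: acagatccctgatgtctgtcactatagaca
Signals were 2.22, 1.66, 1.76 and 1.88 in MRL/lpr, 1.74, 1.53, 1.79 and 1.94 in Fn14ko and 2.90, 3.22, 4.04 and 3.36 in MRL/+. Again every MRL/+ mouse was above all others. Slc6a11 fell by 0.84 on the log2 scale in MRL/lpr (SE 0.18, limma adjusted p = 0.00997), a 1.80-fold lower level, and by 0.94 in Fn14ko (SE 0.18, limma adjusted p = 0.0328), a 1.93-fold lower level. Without the MRL/+ Cy5 mice it gave -0.83 (limma adjusted p = 0.0722) and -0.93 (limma adjusted p = 0.264), and leaving out MRL/+ replicate 4 alone raised the limma adjusted p to 0.0545 and 0.204. The call in Fn14ko was also lost without Fn14ko replicate 2 (limma adjusted p = 0.114) or 3 (limma adjusted p = 0.0907), or with the Cy3 mice only (limma adjusted p = 0.0737). With dim spots kept, Slc6a11 gave -0.25 (limma adjusted p = 0.753) and -0.22 (limma adjusted p = 0.783). Of 11 astrocyte markers, 0 were higher and 1 lower in MRL/lpr (9.09%, beside 14.4% of all genes) and 0 passed in Fn14ko (beside 0.954%). Their summed signal was 124 to 230, 124 to 139 and 110 to 158 in MRL/lpr, Fn14ko and MRL/+, with overlap of all groups. 

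Slc6a13 encodes GAT2, a transporter of meninges and vessels more than of neurons. It was at 2.47, 2.11, 2.33 and 2.27 in MRL/lpr, 0.768, 2.98, 1.49 and 5.35 in Fn14ko and 1.84, 1.26, 0.80 and 1.60 in MRL/+. MRL/lpr lay above MRL/+, without passing the test (0.80, SE 0.52, limma adjusted p = 0.275, and 0.47 with adjusted p = 0.739 without the MRL/+ Cy5 mice), and Fn14ko was widely spread. Of 12 meningeal markers 0 passed the limma test in any comparison (1, 1 and 2 at an unadjusted p under 0.05, where 34.7%, 21.9% and 18.6% of all genes lay), and their summed signal was also widest in Fn14ko (12.4 to 46.6, against 13.2 to 20.1 in MRL/lpr and 13.4 to 16.4 in MRL/+). Abat, the transaminase that breaks GABA down, was at 13 to 24.9 in MRL/lpr, 13.3 to 15.5 in Fn14ko and 9.62 to 16.2 in MRL/+, and its differences of 0.14 to 0.37 did not pass.

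Of the 3 genes of GABA synthesis and vesicle loading, 0 passed the limma test in any comparison. In the 3 comparisons 1, 2 and 0 had an unadjusted limma p under 0.05, beside 34.7%, 21.9% and 18.6% of all genes. Gad1, the decarboxylase isoform behind most basal GABA, was at 13.3, 14.2, 12.3 and 11.3 in MRL/lpr, 11.9, 15.3, 13.4 and 16.9 in Fn14ko and 8.96, 10.5, 9.56 and 7.23 in MRL/+. Both lpr groups lay above MRL/+ without overlap, by 0.51 in MRL/lpr (SE 0.21, limma adjusted p = 0.106) and 0.67 in Fn14ko (SE 0.21, limma adjusted p = 0.118). These were, without the MRL/+ Cy5 mice, 0.38 (limma adjusted p = 0.393) and 0.54 (limma adjusted p = 0.588), and the second passed without MRL/+ replicate 3 (limma adjusted p = 0.0477). Gad2, the synaptic isoform, was at 6.25 to 6.81 in MRL/lpr, 6.01 to 9.33 in Fn14ko and 5.69 to 9.13 in MRL/+, with overlap of all groups.

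Slc32a1, the vesicular GABA transporter VGAT, was at 8.45, 7.73, 7.70 and 6.23 in MRL/lpr, 12.4, 11.2, 9.59 and 10.6 in Fn14ko and 6.10, 4.77, 8.45 and 2.68 in MRL/+. Fn14ko lay above both other groups, by 1.11 over MRL/+ (SE 0.32, limma adjusted p = 0.103) and with MRL/lpr at -0.55 against it (SE 0.32, limma adjusted p = 0.397), and neither difference passed. The first was 0.66 (limma adjusted p = 0.480) without the MRL/+ Cy5 mice, and it passed without MRL/+ replicate 3 (1.41, limma adjusted p = 0.0467). These values follow the bright probe of the gene, at chr2:158441324-158441383. The dim probe, at chr2:158440166-158440225, both on the plus strand of mm9, is printed because it alone passed and went the other way.
Slc32a1 dim probe: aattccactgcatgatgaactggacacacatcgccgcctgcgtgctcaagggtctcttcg
It read 0.292, 0.280, 0.255 and 0.286 in MRL/lpr, 0.783, 0.622, 0.572 and 0.477 in Fn14ko and 0.818, 0.888, 0.647 and 0.941 in MRL/+. It was well above background in 3 of the 4 MRL/+ mice. It fell by 1.55 in MRL/lpr against MRL/+ (SE 0.23, limma adjusted p = 0.00119) and by 1.12 against Fn14ko (SE 0.23, limma adjusted p = 0.0139), while the bright probe gave 0.68 (SE 0.36, limma adjusted p = 0.182) and -0.53 (SE 0.36, limma adjusted p = 0.498). Against Fn14ko both probes thus had the same sign, and against MRL/+ opposite signs.

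Nlgn2, the adhesion protein neuroligin 2 of inhibitory synapses, was at 28.2, 35.7, 26.8 and 30.4 in MRL/lpr, 20.8, 33.2, 28.1 and 29.8 in Fn14ko and 20.1, 20.4, 20.7 and 9.75 in MRL/+. Both lpr groups lay above MRL/+, with the lowest Fn14ko mouse (20.8) next to the highest MRL/+ mouse (20.7). The differences, 0.83 (SE 0.32, limma adjusted p = 0.0899) and 0.70 (SE 0.32, limma adjusted p = 0.220), did not pass, and both turned negative with the software's own processed signal. They were, with the MRL/+ Cy5 mice left out, 0.40 (limma adjusted p = 0.380) and 0.28 (limma adjusted p = 0.937), and without MRL/+ replicate 4 alone 0.50 and 0.38. The difference in MRL/lpr passed without MRL/+ replicate 3 (1.07, limma adjusted p = 0.0260). Gphn, the scaffold gephyrin, was at 1.63 to 3.12 with all groups overlapping. Gabarap, Gabarapl1 and Gabarapl2, adaptors of receptor trafficking and autophagy, differed by -0.58 to 0.45 and did not pass. The retained Gabarap probes did not all follow the gene value. The dim probe at chr11:69804812-69804871 fell by 1.23 in MRL/lpr against MRL/+ without overlap (SE 0.46, limma adjusted p = 0.0842). The probe at chr11:69808343-69808402 rose by 0.65 in Fn14ko against MRL/+ without overlap (SE 0.40, limma adjusted p = 0.306).

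The 4 mice of each group did not overlap for 9 of the 24 genes (37.5%, beside 23.9% of all genes) when MRL/lpr was set against MRL/+. For Fn14ko against MRL/+ there were 6 (25%, beside 13.5%), and for MRL/lpr against Fn14ko 5 (20.8%, beside 20.3%). In each such case the 2-sided exact permutation p was 0.0286, the smallest that 70 divisions of 8 mice allow. This p follows from the lack of overlap and is not a further test.

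**Figure D4:**
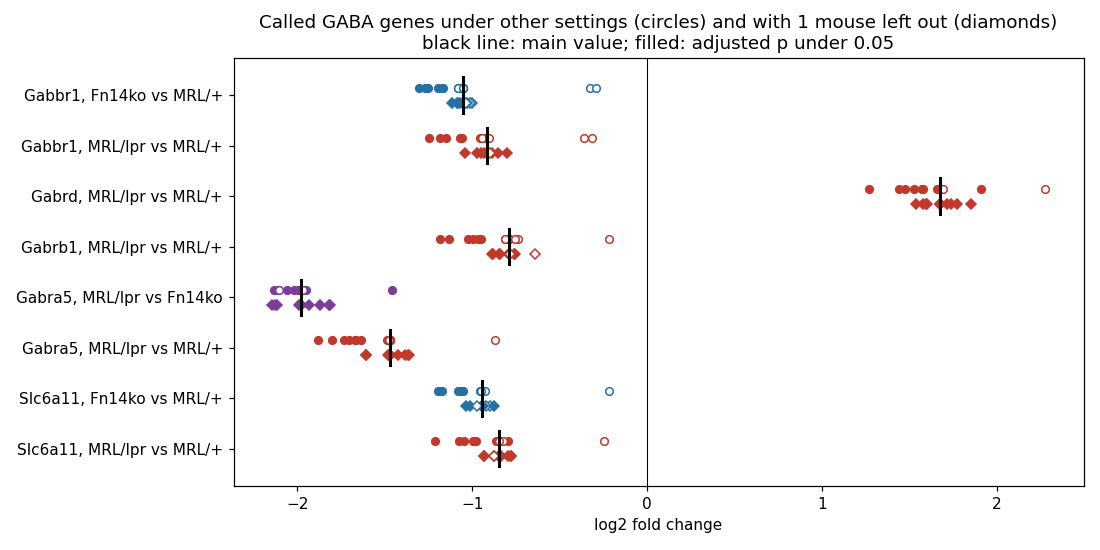
Log2 fold change (x axis) of the 8 called differences (y axis) under other processing settings (circles) and with 1 mouse left out (diamonds). Black lines are the reported values and filled symbols have an adjusted p under 0.05. All symbols keep the side of 0, and Gabra5 and Gabrd stay filled for every mouse left out.

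Other genes that act with these receptors were taken as a list of 41, of which 39 had a value: chloride transporters, GABA-B auxiliary subunits, their potassium channels and anchoring proteins. In MRL/lpr against MRL/+, 2 were higher and 6 lower, or 20.5% beside 14.4% of all genes. That count of 8 dropped to 3 when MRL/+ replicate 4 was left out and reached 13 when MRL/+ replicate 3 was, and 4.51% and 32.1% of all genes passed there. Other settings gave 0 (no filter on dim spots, 0.0755% of all genes) to 19 (background subtraction, 29.7%, and loess, 32.8%). Kcnj9 (GIRK3), a subunit of the potassium channels that GABA-B receptors open, averaged 4.19 ± 0.520 in the MRL/lpr mice, 1.54 ± 0.748 in the Fn14ko mice and 1.36 ± 0.239 in the MRL/+ mice (SD, n = 4 each). It rose by 1.64 against MRL/+ (limma adjusted p = 0.00283) and by 1.54 against Fn14ko (limma adjusted p = 0.00660). It was the only called gene of the list in the latter comparison (2.56%, beside 4.57% of all genes). Kcnj3 (GIRK1), another subunit of these channels, fell by 1.18 against MRL/+ (limma adjusted p = 0.00633), from 0.641 ± 0.0340 to 0.285 ± 0.0372 (SD, n = 4). Kctd12, an auxiliary subunit of GABA-B receptors, fell by 1.17 (limma adjusted p = 0.00806), from 3.31 ± 0.644 to 1.46 ± 0.271 (SD, n = 4). Slitrk3, an adhesion protein of inhibitory synapses, fell by 1.03 (limma adjusted p = 0.0102), from 1.88 ± 0.246 to 0.944 ± 0.268 (SD, n = 4). In Fn14ko against MRL/+, 0 of the 39 passed by limma and 10 (25.6%) had an unadjusted p under 0.05, beside 21.9% of all genes. By the methods' t-test after Benjamini-Hochberg adjustment the count was also 0. With 1 mouse left out it was 0 to 5 (5 without MRL/+ replicate 3, where 12.5% of all genes passed). Under other settings it was 0 to 8 (8 with background subtraction, beside 16.4% of all genes). Without the MRL/+ Cy5 mice, 3 of the list passed in MRL/lpr against MRL/+ (beside 5.03% of all genes), and without MRL/+ replicate 4 also 3 (beside 4.51%). Kcnj3 then missed the threshold in the first case (limma adjusted p = 0.0671) and Kctd12 in the second (limma adjusted p = 0.0606).

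Interneuron markers, which label the cells that make GABA, moved both ways in MRL/lpr against MRL/+: 3 of 16 with a value, of 18 listed, were higher and 3 lower. Together they were 37.5% of the list's genes with a value, beside 14.4% of all genes. Vip, a peptide of one interneuron class, rose from 1.10 ± 0.250 to 2.61 ± 0.425 (SD, n = 4), by 1.26 on the log2 scale (limma adjusted p = 0.00292), and was 1.09 higher than in Fn14ko (limma adjusted p = 0.0109). Npy, neuropeptide Y, rose by 1.37 (limma adjusted p = 0.00565). Nos1, neuronal nitric oxide synthase, fell by 1.90 (limma adjusted p = 0.00372), and Dlx2, a transcription factor of interneuron development, by 1.00 (limma adjusted p = 0.0118). Without the MRL/+ Cy5 mice, Dlx2 missed the threshold (limma adjusted p = 0.115) and Vip, Npy and Nos1 passed it. The summed signal of the list was 141 to 185 in MRL/lpr, 120 to 223 in Fn14ko and 121 to 166 in MRL/+, with overlap of all groups.

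Genes of other marker lists also passed the limma test, where 14.4%, 0.954% and 4.57% of all genes passed in the 3 comparisons. In MRL/lpr against MRL/+, 4 of 12 excitatory neuron markers were higher and 4 lower, 3 of 9 endothelial markers were higher and 0 lower, 1 of 3 blood markers was higher, 1 of 9 myelin markers was higher and 3 lower, and 3 of 9 cerebellar markers with a value were lower. The summed endothelial signal was 26.4 to 29.2 in MRL/lpr, 19.6 to 25.9 in Fn14ko and 14.6 to 17.3 in MRL/+, and that of blood markers 91.3 to 230, 32.9 to 95.2 and 24.3 to 46.8. Of 10 microglial markers 1 was higher in MRL/lpr (10%), and of 11 choroid plexus markers 1 was lower than in either other group (9.09%). Against MRL/+ both shares were below that of all genes. Against Fn14ko the choroid plexus share was above the 4.57% of all genes. There, 36.4% of the choroid plexus markers had an unadjusted limma p under 0.05, beside 18.6% of all genes. Their median log2 fold change was -1.39 against MRL/+ and -1.27 against Fn14ko. Their summed signal was 22.3 to 160 in MRL/lpr, 33.0 to 299 in Fn14ko and 33.0 to 313 in MRL/+, with overlap of all groups. In Fn14ko against MRL/+, 1 endothelial marker was higher and no other marker of these lists passed. In MRL/lpr against Fn14ko, where Gabra5 was lower, 2 of 12 excitatory neuron markers were higher (Rorb by 1.06 and Cux2 by 1.73) and 2 lower (Bcl11b at -1.30 and Neurod6 at -2.11), and 1 of 9 myelin markers was higher and 2 lower. An unadjusted limma p under 0.05 was found for 83.3% of these excitatory neuron markers and 88.9% of the myelin markers, beside 18.6% of all genes. For the striatal and the cerebellar markers the share was 0%. The part of these cell types in the differences of the GABA genes was not tested.

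**Figure D5:**
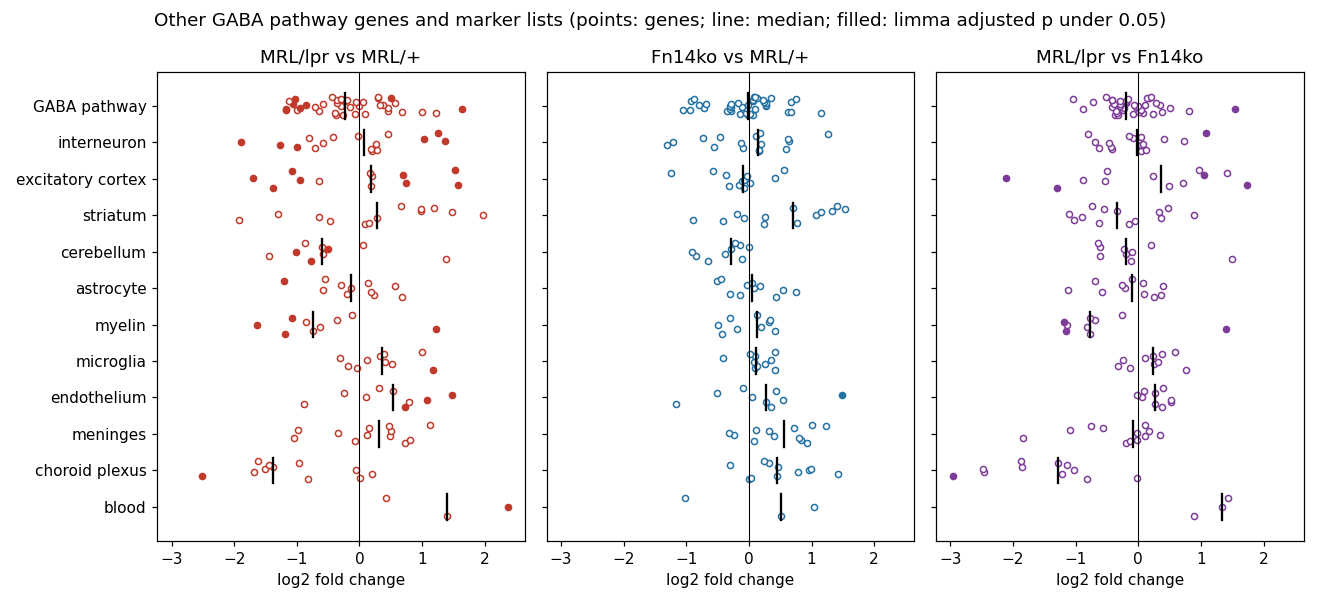
Log2 fold change (x axis) of the genes (points) of the GABA pathway list and 11 marker lists (y axis) in the 3 comparisons. Lines are medians and filled points passed the limma threshold; 1 endothelial marker is the only filled point in Fn14ko against MRL/+.

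The upstream sequences of Gabbr1 and Slc6a11, lower in both lpr groups, and of Gabra5, lower in MRL/lpr alone, are shown as examples. They were chosen by their direction in these data, and a link between motif and direction was not tested. RefSeq promoters on GRCm38.p6 matched 25 of the 27 genes, without Abat and Gabrd. The 250 bases before the start were searched on both strands for 6 motifs, and capitals mark the matches.
Gabbr1, chr17:37045716-37045965, plus strand: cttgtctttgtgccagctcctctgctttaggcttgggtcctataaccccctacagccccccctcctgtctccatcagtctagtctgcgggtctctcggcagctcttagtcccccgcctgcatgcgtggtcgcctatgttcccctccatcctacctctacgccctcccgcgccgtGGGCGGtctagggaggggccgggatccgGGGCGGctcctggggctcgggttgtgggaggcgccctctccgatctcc
Slc6a11, chr6:114130991-114131240, plus strand: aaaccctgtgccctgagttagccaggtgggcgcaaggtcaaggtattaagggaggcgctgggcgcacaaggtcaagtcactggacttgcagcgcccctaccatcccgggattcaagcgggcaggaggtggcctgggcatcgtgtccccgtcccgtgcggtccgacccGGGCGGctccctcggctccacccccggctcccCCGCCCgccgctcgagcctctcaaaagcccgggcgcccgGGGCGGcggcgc
Gabra5, chr7:57510060-57510309, minus strand: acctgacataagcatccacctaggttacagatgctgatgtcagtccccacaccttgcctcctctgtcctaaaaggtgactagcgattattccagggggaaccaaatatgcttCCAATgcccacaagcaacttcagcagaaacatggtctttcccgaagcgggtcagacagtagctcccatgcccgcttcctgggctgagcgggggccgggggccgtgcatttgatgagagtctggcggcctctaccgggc
Gabbr1 and Slc6a11, which were lower in both lpr groups, had 2 and 3 matches of the GC box GGGCGG, and Gabra5 had 0 of these and 1 CCAAT. The searched bases were 66.0%, 71.2% and 56.4% G or C in Gabbr1, Slc6a11 and Gabra5, beside a median of 52.4% over all promoters. The part of this in the matches was not tested. A gene was counted if any of its promoters matched, while shares are over single promoters, so counts and shares are in unlike units. A GC box was found for 16 of the 25 genes and in 32.7% of all 32851 promoters, and CCAAT for 11 of the 25 and in 33.8%. The genes with a GC box included Gphn and Gabra4, which passed in no comparison, and not Gabrb1, which was lower in MRL/lpr. TATAAA was found for 3 genes and in 12.4% of all promoters. The cAMP response element TGACGTCA (1.55% of all promoters), the E box CACGTG (6.02%) and the interferon response element in its 2-repeat form (2.98%) were found for 0 of the 25 genes.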

How the data were processed

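Cortex RNA of 12 mice was hybridized by the authors to 6 two-color Agilent arrays with 60-base probes. The deposited files hold the unnormalized mean foreground and median local background intensity of each spot and channel, the software's quality marks, and its processed intensity. Groups came from the deposited labels, coordinates (mm9) and gene names from the files.

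As in the study, a spot was dropped where the software had marked it for uneven pixels or as an outlier (1952 spots), or where a mouse's foreground was less than 2 times its local background (17781 spots, some also marked). This left 24255 spots of 17302 genes. Background was corrected with normexp (offset 50) in limma 3.58.1 (R 4.3.3), signals were divided by the channel's median spot, and a gene's spots were averaged on the linear scale. The limma model of log2 signals took all 12 mice, with a dye term, the array as random block (correlation 0.316) and a trended prior, with Benjamini-Hochberg adjustment over all genes and a threshold of 0.05. Probes were fitted singly in the same way. Depth has no meaning here, so the number of arrays limits the precision (median SE 0.25). No spot was saturated.

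Lists of pathway and marker genes were described by counts and medians. All members and lists were chosen with earlier results of these data known. Statistics are given for each member and comparison that passed the threshold or had groups without overlap, and for up to 4 genes of a list with the lowest adjusted p. Alternatives to background correction, scaling, filters, merging, fit terms, mice and test were tried, 29 in all. On simulated data, with 200 of 17302 genes changed between MRL/lpr and MRL/+, 23% of changes of 1 log2 unit and 80% of 2 were recovered, and 10 of 113 calls were false. The real comparison called 14.4% of genes, a larger share than was changed here, so these rates need not hold for it.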

Additional observations from a re-analysis of the deposited data

Results flagged for a closer look

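Of 72 sets of 4 mice (24 GABA genes in 3 groups), 3 had 1 mouse far from the other 3 by Dixon's test at 95%, which chance gives in about 1 of 20 sets. Abat in MRL/lpr replicate 2 was at 24.9, against 13 to 14.0 in the others. Gabrg1 in MRL/+ replicate 1 was at 0.949, against 1.27 to 1.32. Nlgn2 in MRL/+ replicate 4, a Cy5 mouse with the lowest share of spots well above background, was at 9.75, against 20.1 to 20.7. The causes were not tested.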

How the results depend on the processing

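The counts of GABA genes past the threshold were 5, 2 and 1 in MRL/lpr against MRL/+, Fn14ko against MRL/+ and MRL/lpr against Fn14ko. Under the following settings they left a range of 1.5 times, given in the same order where more than 1 did. With no filter on dim spots they were 0, 0 and 0 (0.0755%, 0% and 0.11% of all genes). After the methods' t-test with Benjamini-Hochberg adjustment they were 0, 0 and 0 (4.17%, 0.0116% and 1.05%). Unadjusted they were 9, 6 and 7 (24.4%, 15.2% and 22.1%). The share of all genes called moved too. With no array block the counts were 9, 5 and 2, beside 30%, 10.9% and 10.3% of all genes. With the replicate number as a block they were 8, 5 and 3, beside 32.3%, 6.99% and 9.39% of all genes. Under that block Gad1 in both comparisons with MRL/+ (limma adjusted p = 0.0423 and 0.0436), Gabrb2 and Nlgn2 in MRL/lpr, Slc32a1 and Gabbr2 in Fn14ko, and Gabrd and Gabrb1 in MRL/lpr against Fn14ko also passed. Correlations between deviations of same-numbered mice ran from -0.13 to 0.72, not all above 0.1, and 7 of the 12 mice correlated best with their own number, so the numbers were not taken as pairs. Agilent's processed signal gave 8 in the first (17.7% of all genes) and 4 in the last comparison (10.9%). Plain background subtraction gave 6 and 5 in the second and last (16.4% and 16.5% of all genes). Loess with quantile scaling of mean signal gave 4 and 6 (8.85% and 20.1%), and a capped local background 5 and 3 (13.2% and 14.3%). Without the MRL/+ Cy5 mice the first 2 were 2 and 0 (5.03% and 0.0347% of all genes). Fn14ko against MRL/+ gave 1 with marked spots kept (0.721% of all genes) and 1 with the Cy3 mice only (0.959%). MRL/lpr against Fn14ko gave 2 with 75th percentile scaling (5.47% of all genes) and 3 with spots well above background in all 12 mice (16.1%). It gave 2 with the log2 mean over spots (4.54%) and 2 with no dye term (5.2%). Leaving out 1 mouse gave 2 to 9, 0 to 7 and 1 to 2. The first was at 2 without MRL/+ replicate 4 (4.51% of all genes) and at 9 without MRL/+ replicate 3 (32.1%). The second was at 0 without Fn14ko replicate 2 (0.15%) or 3 (0.254%) or MRL/+ replicate 4 (0.0462%). It was at 7 without MRL/+ replicate 3 (12.5%). The third was at 1 without MRL/+ replicate 4 (2.06%) and at 2 without MRL/+ replicate 1 (5.79%).

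With Agilent's processed signal, Gad1 in MRL/lpr against MRL/+ turned to -0.0028, Slc32a1 in Fn14ko against MRL/+ to -0.076, and Nlgn2 to -0.49 (limma adjusted p = 0.0394) and -0.49 (limma adjusted p = 0.0744) in the 2 comparisons with MRL/+. The causes were not tested. With dim spots kept 27 members were tested, and with spots well above background in all 12 mice 18. The low share of spots well above background in the MRL/+ Cy5 mice limits what comparisons with MRL/+ can measure.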
